A study of Homo sapiens with 6 samples.

Results

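The genes described here are the 8 human genes that write, copy and remove DNA methylation: the methyltransferases DNMT1, DNMT3A and DNMT3B, the methylation readers UHRF1 and UHRF2, and the dioxygenases TET1, TET2 and TET3. They were taken by symbol from the deposited count tables, where all 8 are listed among 26485 symbols, and all 8 passed the filter on low counts that kept 13632 genes. RNA was sequenced from AF22, an established human neural stem cell line that was made from induced pluripotent stem cells and has a neuroepithelial character. There were 3 libraries labelled as a knockdown of COMMD3 and of the readthrough gene COMMD3-BMI1, and 3 libraries that received a control hairpin (shControl) and are labelled WT. The labels do not describe the knockdown reagent, a treatment time or whether replicates were separate cultures, so p-values rest on a spread among libraries that may be technical. The question was which transcripts differ between cells with lowered COMMD3 and control cells.

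DNA methylation is the addition of a methyl group to cytosine, in mammals mostly at CpG pairs. DNMT3A and DNMT3B place new marks, while DNMT1 copies marks to the new strand behind the replication fork, to which UHRF1 brings it by binding hemimethylated DNA. TET enzymes oxidise methylcytosine with oxoglutarate as a cofactor, and the glycosylase TDG removes the oxidised bases. In neural stem cells these enzymes are known to act on the timing of neuronal and glial gene expression. Methylation itself was not measured in these samples, and everything below is the level of RNA.

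Library totals were between 8574066 and 9692967 counts in knockdown and between 7294687 and 11579849 counts in control. COMMD3, whose product belongs to the Commander endosomal sorting complex, had 12.9, 11.3 and 10.5 CPM (counts scaled to library size) in knockdown, against 31.7, 29.7 and 27.6 CPM in control (edgeR log2 fold change −1.37 ± 0.0996 SE, adjusted p = 2.34e-12). COMMD3-BMI1 is listed at 0 in all 6 libraries, and it has no exon base that COMMD3 or BMI1 does not share. BMI1, a polycomb subunit, had 104.8 ± 1.80 CPM in knockdown and 110.2 ± 2.41 CPM in control (SD, n = 3 each; edgeR adjusted p = 0.206). Of 12 neural stem cell markers, 11 were expressed enough to be tested, with summed levels of 2528 to 2607 CPM in knockdown and 2497 to 2664 CPM in control. Of the 11, 4 fell (36.4%, against 18.1% of all tested genes), 1 rose (9.09%, against 15.3%) and 6 did not pass. SOX2, HES1, PROM1 and ZBTB16 fell, by 0.15 to 0.52 on the log2 scale, and MSI1 rose by 0.13. VIM and NES did not pass and had the highest levels, 1187.4 and 703.4 CPM in knockdown. The summed level therefore says little about the other markers. The untested marker, HES5, had no counts. The neuron markers RBFOX3, STMN2, GAD1, GAD2 and SLC17A6 had at most 2 counts in a group, DCX had 31 counts in knockdown and 20 in control, and the astrocyte marker GFAP and the oligodendrocyte marker SOX10 had none. Of 8 neuron markers, MAP2 and SYP were tested, with sums of 492.1 to 507.5 CPM in knockdown and 525.6 to 567.3 CPM in control, and SYP fell. Of 4 astrocyte and 6 leukocyte markers, AQP4 was tested and did not pass (edgeR adjusted p = 0.451).

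Most of the 8 transcripts were lower in knockdown, and unequally so. Of the 8 genes, 5 fell (TET1, UHRF1, TET3, DNMT3B and DNMT1), none rose, and 3 did not pass (TET2, DNMT3A and UHRF2), by the edgeR quasi-likelihood test at a Benjamini-Hochberg adjusted p under 0.05 over all tested genes. DESeq2 and an unadjusted p under 0.05 did not give a higher gene either. Among all tested genes, 33.3% changed, 18.1% being lower and 15.3% higher, so the share of lower genes among the 8, 62.5%, stood above that background. The median log2 fold change was −0.26 over the 8 genes and 0.002 over all tested genes. The knockdown and control libraries did not overlap for the same 5 genes, where 44.3% of all tested genes were without overlap. In bulk RNA, fewer cells of a kind and less RNA per cell cannot be told apart.

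**Figure D1:**
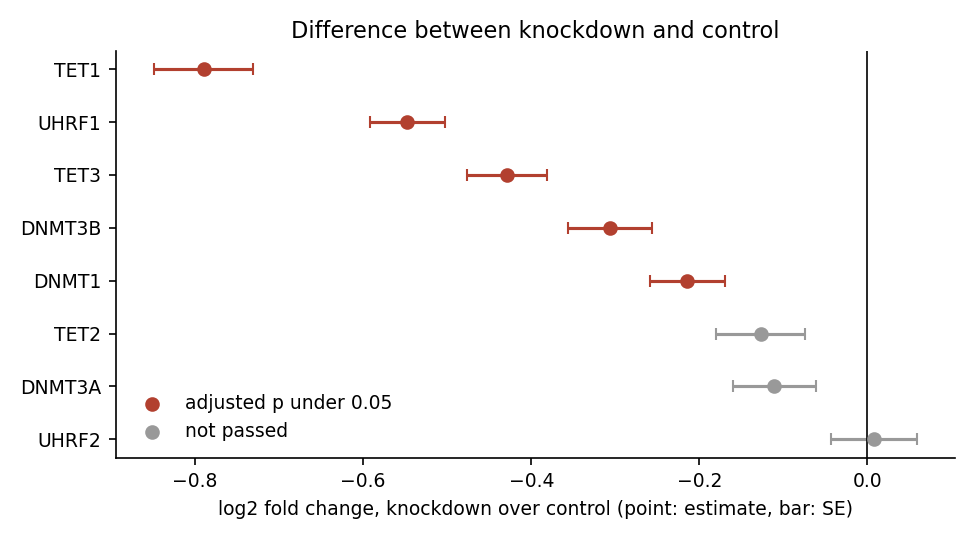
Log2 fold change of each of the 8 genes (rows), knockdown over control, as estimate (point) and standard error (bar) from the edgeR fit. TET1 at −0.79 and UHRF1 at −0.55 lie farthest from 0, and the estimate of UHRF2 is 0.01.

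UHRF1 fell by 31.6%, and its paralog UHRF2 gave nearly equal levels in both groups. UHRF1 (ENSG00000276043) lies on chromosome 19 of GRCh38 from 4903080 to 4962154 on the plus strand. It had 99.7, 105.8 and 103.7 CPM in knockdown, against 149.4, 151.4 and 151.0 CPM in control. Every knockdown library lay at least 43.5 CPM below every control library, while the knockdown libraries spread over 6.12 CPM and the control libraries over 2.06 CPM. The log2 fold change was −0.55 ± 0.0442 (SE; adjusted p by edgeR = 2.67e-11), the 391st largest fall among 2461 lower genes. UHRF2 (ENSG00000147854, chromosome 9 from 6413151 to 6507054, plus strand), which binds methylated and hydroxymethylated DNA but is not known to replace UHRF1 in maintenance, had 70.5, 73.0 and 72.6 CPM in knockdown, against 71.7, 74.3 and 68.4 CPM in control. The groups overlapped, and the log2 fold change was 0.01 ± 0.0511 (SE; adjusted p by edgeR = 0.925).

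UHRF1 is known as a gene of the G1/S transition that E2F factors activate, so the promoters of both paralogs were searched for words close to the published E2F motif, TTCCCGC and TTGGCGC, on both strands. The windows ran from 250 bases before to 50 after each RefSeq start (GRCh38.p14), and no other motif was searched. The 250 bases before the start are shown for UHRF1 (chr19:4909251-4909500, plus strand) and UHRF2 (chr9:6412949-6413198, plus strand), because the paralogs differed in response and these windows hold a match, in capitals.
UHRF1: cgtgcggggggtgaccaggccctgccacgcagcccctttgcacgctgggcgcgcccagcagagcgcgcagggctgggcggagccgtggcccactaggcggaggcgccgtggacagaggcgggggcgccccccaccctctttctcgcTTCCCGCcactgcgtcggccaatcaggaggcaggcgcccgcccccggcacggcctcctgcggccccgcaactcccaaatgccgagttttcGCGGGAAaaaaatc
UHRF2: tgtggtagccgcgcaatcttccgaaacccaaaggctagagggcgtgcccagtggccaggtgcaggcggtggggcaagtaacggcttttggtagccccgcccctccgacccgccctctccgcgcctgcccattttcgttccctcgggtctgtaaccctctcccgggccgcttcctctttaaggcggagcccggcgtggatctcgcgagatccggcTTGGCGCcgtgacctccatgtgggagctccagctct
UHRF1 has 3 RefSeq starts, and the window shown holds 2 matches, 1 on each strand, while those of the other 2 starts hold none. The single UHRF2 window holds 1. Of 19 windows of the 8 genes, 3 held a match, the other being 1 window of TET3. Of all 35116 windows of this length, 9.23% held a match, as did 17 of 27 windows of the S-phase genes described below. A match is a description of the sequence and not evidence of binding.

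Of the methyltransferases, DNMT3B and DNMT1 fell and DNMT3A did not pass the test. DNMT3B (ENSG00000088305, chromosome 20 from 32762385 to 32809356, plus strand), a de novo enzyme that is high in early embryonic cells, had 66.2, 65.2 and 66.2 CPM in knockdown, against 79.4, 84.1 and 81.3 CPM in control. The highest knockdown library lay 13.2 CPM below the lowest control library, and the fall was 19.1% (edgeR log2 fold change −0.31 ± 0.0499 SE, adjusted p = 1.56e-05). DNMT1 (ENSG00000130816, chromosome 19 from 10133345 to 10231286, minus strand), the maintenance enzyme, had 203.2, 218.7 and 218.1 CPM in knockdown, against 242.9, 243.7 and 256.6 CPM in control. It fell by 13.8% (edgeR log2 fold change −0.21 ± 0.0444 SE, adjusted p = 0.000358), and its groups did not overlap either. DNMT3A (ENSG00000119772, chromosome 2 from 25227855 to 25342590, minus strand), the de novo enzyme that prevails in later neural development, had 111.3, 117.9 and 120.2 CPM in knockdown, against 117.7, 127.5 and 134.1 CPM in control. Control replicate 1 lay inside the knockdown range, and the log2 fold change was −0.11 ± 0.0493 (SE; adjusted p by edgeR = 0.0838). Without control replicate 1 it became −0.17 and passed (edgeR adjusted p = 0.0153). DNMT3L, a cofactor of de novo methylation without activity of its own, had no counts in any library.

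Among the dioxygenases, TET1 and TET3 fell and TET2 did not pass. TET1 (ENSG00000138336, chromosome 10 from 68560656 to 68694482, plus strand), which is abundant in pluripotent and progenitor cells, had 39.6, 45.0 and 46.0 CPM in knockdown, against 74.4, 77.0 and 74.3 CPM in control. It fell by 42.2% (edgeR log2 fold change −0.79 ± 0.0590 SE, adjusted p = 4.4e-12), the 163rd largest fall among lower genes. The knockdown libraries spread over 6.40 CPM and lay at least 28.3 CPM below the control libraries. TET3 (ENSG00000187605, chromosome 2 from 73986404 to 74108176, plus strand), known from the zygote and from neurons, had 76.9, 77.7 and 80.7 CPM in knockdown, against 103.6, 109.2 and 104.2 CPM in control. It fell by 25.7% (edgeR log2 fold change −0.43 ± 0.0473 SE, adjusted p = 1.98e-08), with no overlap between the groups. TET2 (ENSG00000168769, chromosome 4 from 105145875 to 105279816, plus strand), which is best known from blood cells and lacks the CXXC domain of its relatives, had 67.6, 69.0 and 72.2 CPM in knockdown, against 78.3, 71.5 and 78.2 CPM in control. Control replicate 2 lay inside the knockdown range, and the log2 fold change was −0.13 ± 0.0525 (SE; adjusted p by edgeR = 0.0615). TET2 passed without control replicate 2 (edgeR adjusted p = 0.0297) and without knockdown replicate 3 (edgeR adjusted p = 0.0416).

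**Figure D2:**
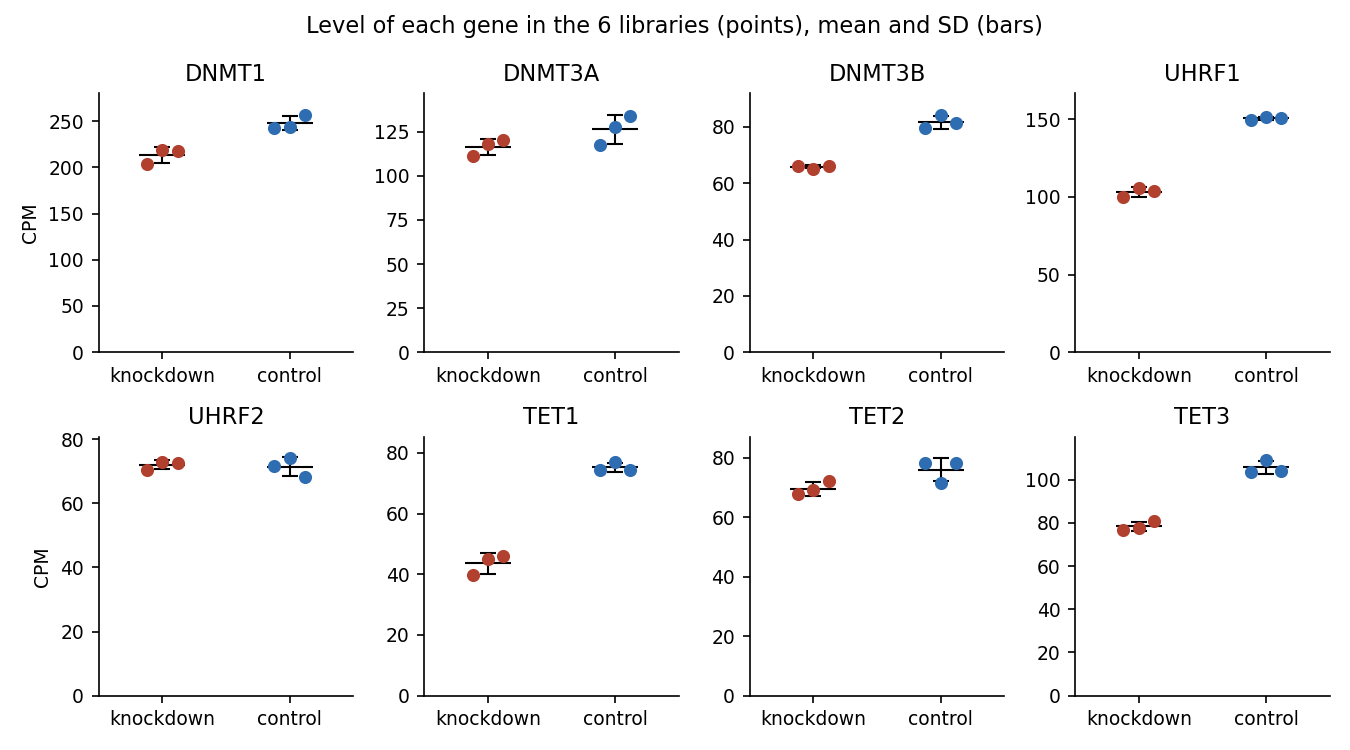
Level of each of the 8 genes in CPM (vertical axis, from 0) in the 3 knockdown and 3 control libraries (points), with mean and SD (bars). The knockdown points of TET1, UHRF1, TET3, DNMT3B and DNMT1 all lie below the control points, and those of DNMT3A, TET2 and UHRF2 overlap with them.

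Since TET1 and DNMT3B are known to be high in pluripotent cells, markers of that state are given beside them. Of 6 markers, 3 were tested: 1 rose (33.3%, against 15.3% of all tested genes), 1 fell (33.3%, against 18.1%) and 1 did not pass. Their summed level was 635 to 693.2 CPM in knockdown and 531.3 to 535.5 CPM in control. LIN28A made up most of that sum, which therefore says little about POU5F1 and DPPA4. LIN28A, an RNA-binding protein that progenitors also express, rose (456.8 ± 25.4 CPM in knockdown, 303.6 ± 6.83 CPM in control; SD, n = 3 each). POU5F1, which has near-identical pseudogenes, fell (45.7 ± 4.02 CPM in knockdown, 59.1 ± 2.28 CPM in control). DPPA4 did not pass, NANOG had 3 counts in knockdown and 1 in control, ZFP42 had 0 in knockdown and 1 in control, and TDGF1 had none. The part of these markers in the lower TET1 and DNMT3B was not tested.

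Levels of different genes were compared as CPM per kb of exon. In knockdown the order was DNMT1 with 39.1 ± 1.60, UHRF1 with 20.0 ± 0.603, UHRF2 with 18.97 ± 0.357, DNMT3B with 14.2 ± 0.129, DNMT3A with 10.9 ± 0.432 and TET3 with 6.84 ± 0.178 CPM per kb, followed by TET1 with 4.69 ± 0.372 and TET2 with 4.43 ± 0.149 CPM per kb (SD, n = 3). Of neighbours in this order, only the libraries of TET1 and TET2 overlapped. In control the order of the 8 genes was the same, with UHRF1 at 29.3 ± 0.213, TET3 at 9.21 ± 0.269, TET1 at 8.10 ± 0.167 and TET2 at 4.83 ± 0.246 CPM per kb. There the libraries of UHRF2 and DNMT3B overlapped, and those of TET1 and TET2 did not. UHRF1 and UHRF2 stood closer together in knockdown than in control, and so did TET1 and TET2. Exon length was the union over annotated transcripts, so these levels depend on which transcripts the cells use.

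Ratios within a library, which do not depend on scaling, showed the same unequal changes. The ratio of UHRF1 to UHRF2 was 1.044, 1.070 and 1.054 in knockdown, against 1.536, 1.504 and 1.630 in control. TET1 stood at 0.636, 0.716 and 0.704 of TET3 in knockdown, against 0.888, 0.871 and 0.880 in control. TET2 stood at 0.642, 0.648 and 0.653 of TET3 in knockdown, against 0.552, 0.478 and 0.547 in control. DNMT3A stood at 0.725, 0.780 and 0.783 of DNMT3B in knockdown, against 0.639, 0.654 and 0.712 in control. In these 4 ratios the groups did not overlap, and each gave an exact two-sided permutation p of 0.1, the smallest that 3 against 3 libraries allow (0.14 when adjusted over the 7 ratios computed). DNMT1 relative to the sum of DNMT3A and DNMT3B was 1.56 ± 0.0450 in knockdown and 1.55 ± 0.0513 in control (SD, n = 3 each; exact permutation p = 0.6). Of the summed TET level per kb, TET1 made up 29.4% ± 1.26 in knockdown and 36.6% ± 0.444 in control. TET2 made up 27.8% ± 0.394 in knockdown and 21.8% ± 1.29 in control, and TET3 42.9% ± 0.876 in knockdown and 41.6% ± 0.857 in control (SD, n = 3 each).

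**Figure D3:**
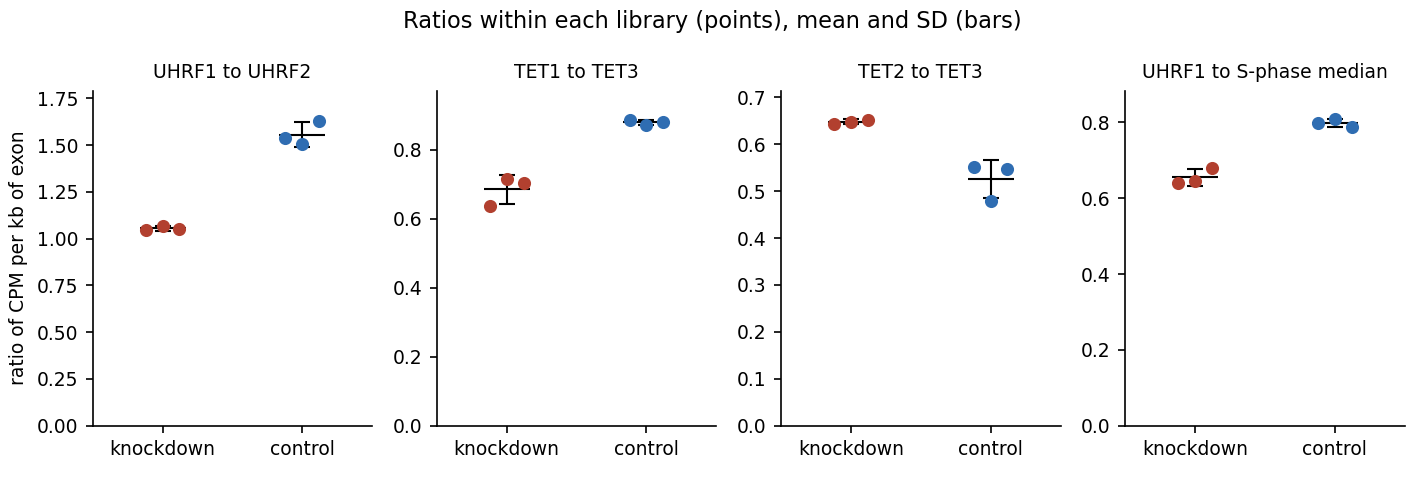
Ratios of CPM per kb of exon (vertical axis, from 0) within each of 3 knockdown and 3 control libraries (points), with mean and SD (bars). The knockdown points lie below the control points for UHRF1 to UHRF2, TET1 to TET3 and UHRF1 to the median of the S-phase genes, and above them for TET2 to TET3.

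DNMT1 and UHRF1 are needed during DNA replication, and genes of S phase were lower in knockdown too. Of 25 S-phase genes, 19 fell (76%, against 18.1% of all tested genes), none rose and 6 did not pass, and the list had its median at −0.23 (log2 fold change). RFC3, a subunit of the clamp loader, fell to 59.5 ± 2.92 CPM in knockdown, against 92.8 ± 3.69 CPM in control (SD, n = 3 each). The helicase subunits MCM4 and MCM6 fell by 0.32 and 0.29, and the polymerase subunit POLD1 by 0.34, on the log2 scale. MCM7, a further helicase subunit, had 314.7 ± 9.54 CPM in knockdown and 334.3 ± 9.01 CPM in control (edgeR adjusted p = 0.124), and its groups did not overlap. The other uncalled genes of this list had overlapping groups and log2 fold changes from −0.05 to 0.07. RFC3 was the only S-phase gene with a larger fall than UHRF1, while 16 of the 25 had a larger fall than DNMT1. Relative to the median S-phase gene of the same library (CPM per kb), UHRF1 stood at 0.640, 0.646 and 0.681 in knockdown, against 0.798, 0.810 and 0.789 in control, without overlap (exact permutation p = 0.1, the smallest possible). DNMT1 stood at 1.28 ± 0.0627 in knockdown and 1.24 ± 0.0214 in control, and its groups overlapped (SD, n = 3 each; exact permutation p = 0.4). On the log2 scale, knockdown minus control, these relative levels differed by −0.29 for UHRF1 and 0.05 for DNMT1. The part of cell cycle phase in the lower UHRF1 and DNMT1 was not tested.

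Partners of maintenance methylation were in part lower. Of 12 tested genes, 5 fell (41.7%, against 18.1% of all tested genes), 1 rose (8.33%, against 15.3%) and 6 did not pass. The list had its median at −0.04 (log2 fold change). The higher gene, CDCA7L (edgeR adjusted p = 0.0435), is named here after its values were seen. It lost its call by DESeq2, without the filter, with length and GC trends removed and whenever any 1 library was left out. HELLS, a remodeler needed for methylation of repeats, fell to 54.4 ± 0.830 CPM in knockdown, against 74.9 ± 1.60 CPM in control (SD, n = 3 each; edgeR log2 fold change −0.46, adjusted p = 3.21e-08). CDCA7, the zinc finger protein that recruits HELLS, fell to 91.1 ± 2.74 CPM in knockdown, against 105.8 ± 2.02 CPM in control. The replication clamp PCNA and the ligase LIG1, a UHRF1 partner at the fork, each fell by 0.18 on the log2 scale. TRIM28, a corepressor at methylated repeats, had 418.5 ± 10.2 CPM in knockdown and 418.9 ± 21.3 CPM in control. Of these partners, PCNA, LIG1, HELLS and CDCA7 are also expressed most in S phase.

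Among partners of the TET enzymes, TDG and IDH1 fell and CXXC5 rose. Of 17 genes of demethylation, base repair and cofactor supply, 5 fell (29.4%, against 18.1% of all tested genes), 3 rose (17.6%, against 15.3%) and 9 did not pass, and the list had its median at −0.05 (log2 fold change). By DESeq2 3 were lower and 1 higher, and without knockdown replicate 2 the higher genes became 1. TDG, which excises oxidised methylcytosine, fell to 93.3 ± 1.74 CPM in knockdown, against 116.2 ± 3.11 CPM in control (SD, n = 3 each; edgeR log2 fold change −0.31, adjusted p = 2.43e-06). IDH1, which makes oxoglutarate, fell by 0.28, and QSER1, known to guard bivalent promoters from methylation together with TET1, fell by 0.26 on the log2 scale. CXXC5, a CXXC protein known to bind TET2, rose to 52.0 ± 1.10 CPM in knockdown, against 38.6 ± 3.50 CPM in control (edgeR log2 fold change 0.44, adjusted p = 3.88e-06). PARP1, which acts in base repair, did not pass (edgeR adjusted p = 0.391).

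Of 9 readers of methylated CpG, 2 fell (22.2%, near the 18.1% of all tested genes) and 3 rose (33.3%, against 15.3%). By DESeq2 1 was lower and 0 were higher. The higher genes became 1 without control replicate 1, and the lower genes became 1 without control replicate 2 or knockdown replicate 1. MBD2 fell to 32.9 ± 2.21 CPM in knockdown, against 46.7 ± 2.81 CPM in control (SD, n = 3 each; edgeR log2 fold change −0.51, adjusted p = 9.88e-07). MBD6 fell by 0.17, and ZBTB4 and ZBTB33 rose by 0.20 and 0.15 on the log2 scale, but DESeq2 called none of these 3 (adjusted p = 0.0664, 0.0643 and 0.0787). Of 10 tested methyl donor genes, 4 fell (40%, against 18.1% of all tested genes), 2 rose (20%, against 15.3%) and 4 did not pass. The list had its median at −0.09 (log2 fold change). The 2 higher genes became 1 by DESeq2 and without control replicate 1, knockdown replicate 1 or knockdown replicate 2. MAT2A, which makes S-adenosylmethionine, fell by 0.16 and its regulatory subunit MAT2B rose by 0.25 on the log2 scale. MTR, the methionine synthase, and MTHFD1, of the folate cycle, fell by 0.21 and 0.19, and SHMT2 did not pass (edgeR adjusted p = 0.243).

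**Figure D4:**
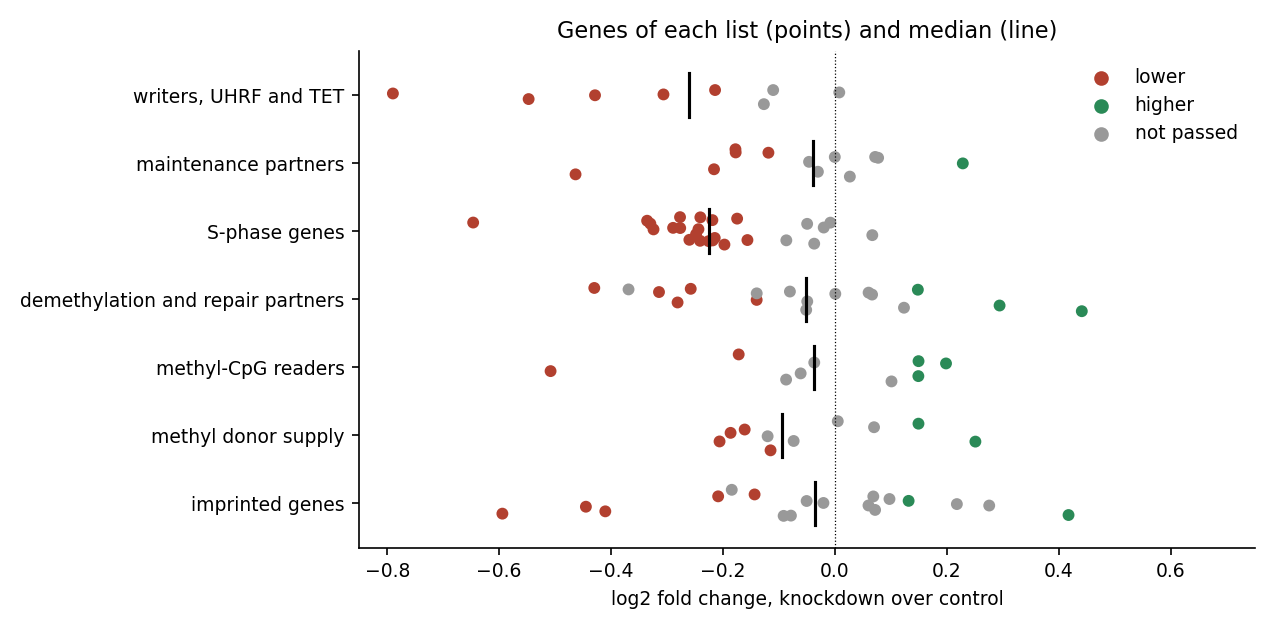
Log2 fold change, knockdown over control, of every tested gene (points) of the 8 methylation genes and of the lists of maintenance partners, S-phase genes, demethylation and repair partners, methyl-CpG readers, methyl donor supply and imprinted genes (rows), with the median of each list (line). The median is −0.26 for the 8 genes and −0.23 for the S-phase genes.

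Most germline and cancer-testis genes, which DNA methylation is known to silence, had few or no counts in both groups. Of 22 germline genes, 20 were too low to be tested, with 55 counts in knockdown and 53 in control in all, and 10 of them, DAZL among them, had no counts. MAEL, with 27 counts in knockdown and 17 in control, held the most of these. SOHLH2, with 2.43 ± 0.404 CPM in knockdown and 2.41 ± 0.119 CPM in control (SD, n = 3 each), and TEX15 were tested, and neither passed. None of 18 cancer-testis genes in the files was high enough to be tested, and together they had 4 counts in knockdown and 6 in control. A gene with no counts may have been present at up to 0.309 to 0.349 CPM in a knockdown library and 0.259 to 0.42 CPM in a control library, taking 3 counts as the floor. Among 3 tested symbols of endogenous retroviruses, ERVK13-1 fell (edgeR log2 fold change −0.56, adjusted p = 5.58e-05), and ERV3-1 did not pass (0.22, edgeR adjusted p = 0.164). ERV3-1 rose without control replicate 3 (edgeR log2 fold change 0.41, adjusted p = 0.00569). Such symbols cover a small part of the retroviral copies of the genome, and repeats as a class were not analysed here.

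Of 18 tested imprinted genes, whose expression from a single parental copy, where it occurs, depends on methylation, 5 fell, 2 rose and 11 did not pass. The list had its median at −0.04 (log2 fold change). The counts do not separate the parental copies. The share called, 38.9%, was near the 33.3% of all tested genes, and the 2 higher genes became 1 by DESeq2 and without control replicate 1, control replicate 2 or knockdown replicate 3. The 5 lower genes became 3 without knockdown replicate 1. PLAGL1, a zinc finger factor, fell to 162.1 ± 3.06 CPM in knockdown, against 245.4 ± 16.1 CPM in control (SD, n = 3 each; edgeR log2 fold change −0.59, adjusted p = 1.53e-11). PEG10, a gene of retrotransposon origin, fell to 814.1 ± 33.9 CPM in knockdown, against 1083 ± 62.0 CPM in control. GNAS, which has an antisense gene whose reads may be mixed in, fell by 0.21 on the log2 scale. CDKN1C, a CDK inhibitor, rose to 41.1 ± 3.01 CPM in knockdown, against 31.1 ± 2.59 CPM in control (edgeR log2 fold change 0.42, adjusted p = 7.03e-05). GRB10 did not pass (edgeR adjusted p = 0.229). H19, NNAT and ZIM2 had no counts.

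The 3′ UTRs of the 8 genes were searched for the word TCATCCA, which had been singled out on these same data as a word of lower genes, so its presence is a description and no test. Of 12052 tested genes with a 3′ UTR of 50 bases or more, 1431 (11.9%) hold it in their longest annotated 3′ UTR (GENCODE v29). Of the 1431, 554 were lower in knockdown, and their median log2 fold change was −0.105. Of the 10621 without it, 1706 were lower, and their median was 0.015. Among the 8 genes, 5 hold the word, at 7 sites, shown 5′ to 3′ on the sense strand with the word in capitals.
UHRF1: agaaactgcggTCATCCAgttcttcctga
DNMT3A: gagagtgggatTCATCCAgactcatgcaa
DNMT3B: atgctgaaaaaTCATCCAagacagttatt
TET2, first site: acattctttgtTCATCCAtaagaagcaac
TET2, second site: aagatgtgttaTCATCCAgactttgttgt
TET3, first site: ttctcccctctTCATCCActttaatatag
TET3, second site: tccattttgtgTCATCCActgtcacaata
No relation between the word and the change was tested among the 8 genes. TET1 and DNMT1, which fell, do not hold it, in 3′ UTRs of 2668 and 321 bases. UHRF1, DNMT3B and TET3 hold it and fell, DNMT3A and TET2 hold it and did not pass, and UHRF2 does not hold it and did not pass. The sites begin at base 862 of 1351 in UHRF1, base 393 of 1453 in DNMT3B and base 1097 of 6424 in DNMT3A. They begin at bases 1125 and 1717 of 5331 in TET2 and at bases 1405 and 4548 of 6000 in TET3.

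The genes whose levels were most like those of each lower gene over the 6 libraries were taken from 11639 genes with a mean of 5 CPM or more, by Pearson's r of log2 CPM. All of these r lay between 0.998 and 0.999, and since the 6 libraries form 2 separate groups they mainly show the shared difference between the groups. FREM2, a matrix protein of embryonic epithelia, MRAS, a RAS-related GTPase, and SEMA5B, a semaphorin, were most like UHRF1. The nuclear export receptor XPO1, the sialyltransferase ST6GALNAC5 and the microtubule protein CLASP1 were most like TET1. POLD1, INPP5D and AK4 were most like TET3, PUM2, CIB2 and MRPL34 most like DNMT3B, and FMNL3, BRF1 and the readthrough symbol ANKHD1-EIF4EBP3 most like DNMT1. Of these 15 genes, POLD1 was also on the S-phase list.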

How the data were processed

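RNA was extracted with an organic reagent and DNase-treated on a column before directional libraries were made, per the labels' protocols. Trim Galore 0.6.6, STAR 2.7.10a, bedtools and hg38 appear in the submitters' processing notes. How reads were counted, with which annotation and whether by strand is not given in the sources used here, so overlapping genes on opposite strands may share reads. The authors deposited 1 table of raw read counts per gene symbol for each sample.

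Libraries were grouped by sample title. The filterByExpr function of edgeR 4.0.16 (R 4.3.3) kept 13632 of 26485 symbols, which held 99.858% to 99.869% of each library's counts. The 2 groups were compared by edgeR's quasi-likelihood test (TMM scaling, no covariate), and p-values were adjusted by Benjamini-Hochberg over all tested genes (threshold 0.05). CPM use library sizes after TMM scaling. Levels per kb divide CPM by the union of exons in GENCODE v29 basic (GRCh38), in which 23850 symbols (90.1%) were found once. Ratios within a library were compared by an exact two-sided permutation test over libraries. The edgeR fit was also run on counts simulated with the same spread setting for every gene. Real genes differ in spread, so that run does not give error rates for these data.

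The genes described and the lists were chosen with earlier results of these data known. Named genes were, for each list, up to 4 called genes with the smallest p and the uncalled gene with the highest level, and for each called member the 3 genes with the most similar levels. A few genes that meet this rule or belong to a list are not reported here. Alternatives were 3 other scalings (RLE, upper-quartile, library size), 2 other filters, DESeq2 1.42.0, limma-voom 3.58.1, a replicate block, leaving out each library, a threshold of 0.01 and removal of length and GC trends (known for 94.3% of tested genes). Python 3.11.15 with SciPy 1.17.1 and Matplotlib 3.10.9 made the ratios and figures.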

Additional observations from a re-analysis of the deposited data

How the results depend on the processing

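The same direction and call held for TET1, UHRF1, TET3, DNMT3B and DNMT1 under each alternative run (scalings, filters, DESeq2, limma-voom, the replicate block, length and GC trends, each library left out), and none of the 8 genes was called higher under any of them. Without 1 library, log2 fold changes ranged from −0.166 to −0.0666 for DNMT3A and from −0.165 to −0.0996 for TET2. With length and GC trends removed they were −0.07 and −0.04. Under the replicate block, DNMT3A (log2 fold change −0.12, adjusted p = 0.0215) and TET2 (−0.13, adjusted p = 0.0286) also passed, which makes 7 lower genes of 8. Under that block the number of lower genes among all 13632 tested also grew, from 2461 to 2790. Replicate numbers were not shown to pair libraries: deviations of same-numbered libraries correlated at 0.079, 0.005 and 0.071, and knockdown replicate 2 correlated best with another number. The cause of these moves was not tested. Over the partner, reader, donor, S-phase, germline, retroviral and imprinted lists, 41 genes were lower and 11 higher. Leaving aside the germline and retroviral lists, with 2 and 3 tested genes, 22.2% (readers) to 76% (S-phase genes) of a list were lower. Of all tested genes, 18.1% were lower. Higher genes made up 0% (S-phase genes) to 33.3% (readers) of these lists, against 15.3% of all tested genes. The S-phase list alone gave 19 of the 41 lower genes, and the 41 became 33 by DESeq2. The 11 became 3 by DESeq2, 4 at an adjusted p under 0.01 and between 5 and 10 without 1 library, with 5 without control replicate 1, 6 without knockdown replicate 2 and 7 without knockdown replicate 3. Over all tested genes, 4545 were called by edgeR and 2865 by DESeq2. Of 49 named genes outside the 8, checked in 735 gene and alternative pairs, 7 pairs lost a call, 5 gained one and none reversed. Depth limits the genes near the floor, for which absence cannot be shown.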
